A study of Mus musculus with 4 samples.

Results

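The genes described here are 4 aquaporin genes, Aqp1, Aqp3, Aqp8 and Aqp9, and 3 genes for beta subunits of the sodium-potassium pump, Atp1b1, Atp1b2 and Atp1b3. These 7 of the 20284 genes named on the array were listed by name and measured by 8 probes. They were selected on measured values: Aqp1 and Atp1b2 had a sharply lower signal in short-term stem cells on these same arrays. Thus their values are a description and no test supports the choice. Gene expression had been measured in 4 fractions of bone marrow from 8-week-old female mice with the genetic background C57BL6, with 1 Agilent array per fraction and no replicate. No genotype or treatment separated the fractions. Long-term hematopoietic stem cells (LT-HSC) were lineage-negative, ckit-positive, Sca1-positive and CD34-negative, while the CD34-positive cells of the same gate were short-term stem cells (ST-HSC). The progenitors are labelled ckit+Lineage-, but the common sorting protocol describes them as Sca1-negative and names lineage-positive cells too, so their gate is not certain. The Lin+ fraction was the lineage-positive, differentiated marrow, a mixture of cell types. The labels do not say how many mice or cells gave each RNA sample.

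Aquaporins are membrane channels that let water cross along an osmotic gradient, and some of them, the aquaglyceroporins, also pass glycerol and other small solutes. The sodium-potassium pump exports sodium and imports potassium at the cost of ATP. Its alpha subunit carries out the transport, and its beta subunit is a glycoprotein needed to fold the alpha subunit and bring it to the cell surface. In blood, Aqp1 is best known as an abundant water channel of the red cell membrane.

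Each array's signal was divided by its own 75th percentile, and the level of a gene is the log2 of that ratio. An error written with ± is Feature Extraction's estimate for 1 spot on 1 array, or for the difference of 2 such spots; it does not cover differences between mice or sorts. From 40.9% to 45.9% of 55678 probes were well above background, and no spot was saturated. The lowest level well above background, used as a floor, was -2.94, -3.39, -2.87 and -3.47 for LT-HSC, ST-HSC, progenitors and Lin+ cells; 4 values given together follow this order. A gene counted as different when the levels lay at least 2-fold apart with the brighter side well above background. All 4 arrays lay on 1 slide, so there was no batch to compare. The sorting genes ran largely with the gates: the Cd34 level was 7.34 in LT-HSC and 8.53 in ST-HSC, Kit was lowest in Lin+ cells (1.67), and Ly6a, which encodes Sca1, was 4.52, 3.12 and 2.28 in the first 3 fractions. Cd34 transcript was thus well above background in the CD34-negative fraction as well, and Ly6a was at 4.51 in Lin+ cells. Of 10 long-term stem cell markers, 10, 6, 7 and 5 were well above background in the 4 fractions.

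The sequences upstream of the 3 genes that were well above background in all 4 fractions are shown because their signal took different courses: Aqp1 was lowest in ST-HSC, Atp1b1 was high in Lin+ cells and Atp1b3 was nearly level. Each is the 250 bases before the RefSeq transcription start, 5′ to 3′ on the gene's strand in build GRCm38.p6: chr6:55336049-55336298 on the plus strand for Aqp1, chr1:164458356-164458605 on the minus strand for Atp1b1 and chr9:96364432-96364681 on the minus strand for the more upstream of the Atp1b3 starts. Capitals mark matches on either strand to the GATA motif AGATAA, the CACCC form CCNCNCCC, the GC box GGGCGG, the TATA box TATAAA and the CAAT box CCAAT; overlapping matches run together.
Aqp1: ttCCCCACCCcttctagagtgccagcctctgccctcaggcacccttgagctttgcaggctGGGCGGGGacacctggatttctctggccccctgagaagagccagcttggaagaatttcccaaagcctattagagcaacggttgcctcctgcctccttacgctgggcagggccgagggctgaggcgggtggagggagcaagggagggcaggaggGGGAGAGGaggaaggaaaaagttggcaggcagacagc
Atp1b1: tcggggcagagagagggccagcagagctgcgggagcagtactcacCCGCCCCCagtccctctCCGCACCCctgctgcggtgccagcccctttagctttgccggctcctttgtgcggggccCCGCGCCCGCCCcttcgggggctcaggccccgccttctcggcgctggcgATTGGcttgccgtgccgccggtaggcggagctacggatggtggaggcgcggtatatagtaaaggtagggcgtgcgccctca
Atp1b3: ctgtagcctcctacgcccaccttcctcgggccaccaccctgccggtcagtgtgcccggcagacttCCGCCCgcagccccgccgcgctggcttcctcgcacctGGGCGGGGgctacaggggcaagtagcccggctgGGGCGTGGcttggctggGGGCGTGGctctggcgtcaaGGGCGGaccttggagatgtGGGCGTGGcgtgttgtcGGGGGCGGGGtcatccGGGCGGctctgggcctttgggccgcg

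The AGATAA motif, bound by GATA factors, was in none of the windows of the 6 genes with an entry; 9.99% of 32851 windows of the same length held it. CCNCNCCC, a form of the CACCC box bound by Klf factors, occurred 3 times upstream of Aqp1, 3 times upstream of Atp1b1 and 6 times upstream of Atp1b3, and 45.9% of all windows held it. GGGCGG, the GC box, occurred 1 time upstream of Aqp1, 2 times upstream of Atp1b1 and 5 times upstream of Atp1b3, against 32.7% of all windows with a match. CCAAT matched 1 time upstream of Atp1b1 and in no other of these windows, with 33.8% of all windows matching. TATAAA matched in none of the 3 sequences and 1 time upstream of Aqp3, with 12.4% of all windows matching. The Aqp1 sequence had 62.0% G and C and 5 CpG pairs, while Atp1b1 and Atp1b3 had 70.4% and 73.6% with 24 CpG pairs each; the median window had 52.4% and 6. The Atp1b3 counts depend on the start chosen. The window of its other start held CCNCNCCC 1 time and GGGCGG 0 times, with 76.8% G and C and 35 CpG pairs. These are matches of letters only. Atp1b2 was named without a sequence.

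Of the 4 aquaporin genes listed, Aqp1 was the one well above background in all 4 fractions, and its level differed between every pair of them by more than the spot error. The probe A_51_P125205 gave 4.97 for LT-HSC, 1.18 for ST-HSC, 7.21 for progenitors and 8.09 for Lin+ cells, each ± 0.14 or ± 0.15. ST-HSC were thus the lowest fraction and Lin+ cells the highest. On the intensity scale before scaling, the 4 signals were 6013, 492, 20290 and 62650. The level in ST-HSC was lower than in LT-HSC by 13.9-fold, a difference of -3.79 ± 0.20, and progenitors exceeded ST-HSC by 65.2-fold, a difference of 6.03 ± 0.20 that was 5.41 under spike-in scaling. Even the lowest signal was far above the array's floor, so both sides of each difference were measured. Progenitors exceeded LT-HSC by 4.70-fold and Lin+ cells exceeded LT-HSC by 8.66-fold. The step from progenitors to Lin+ cells was the smallest of these, at 0.88 ± 0.20 or 1.84-fold, below the 2-fold threshold. Its value ran from 0.81 to 1.75 over the alternative settings and passed 2-fold under normexp, quantile and spike-in scaling, scaling on detected probes, and with the median gene set to 0.

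**Figure D1:**
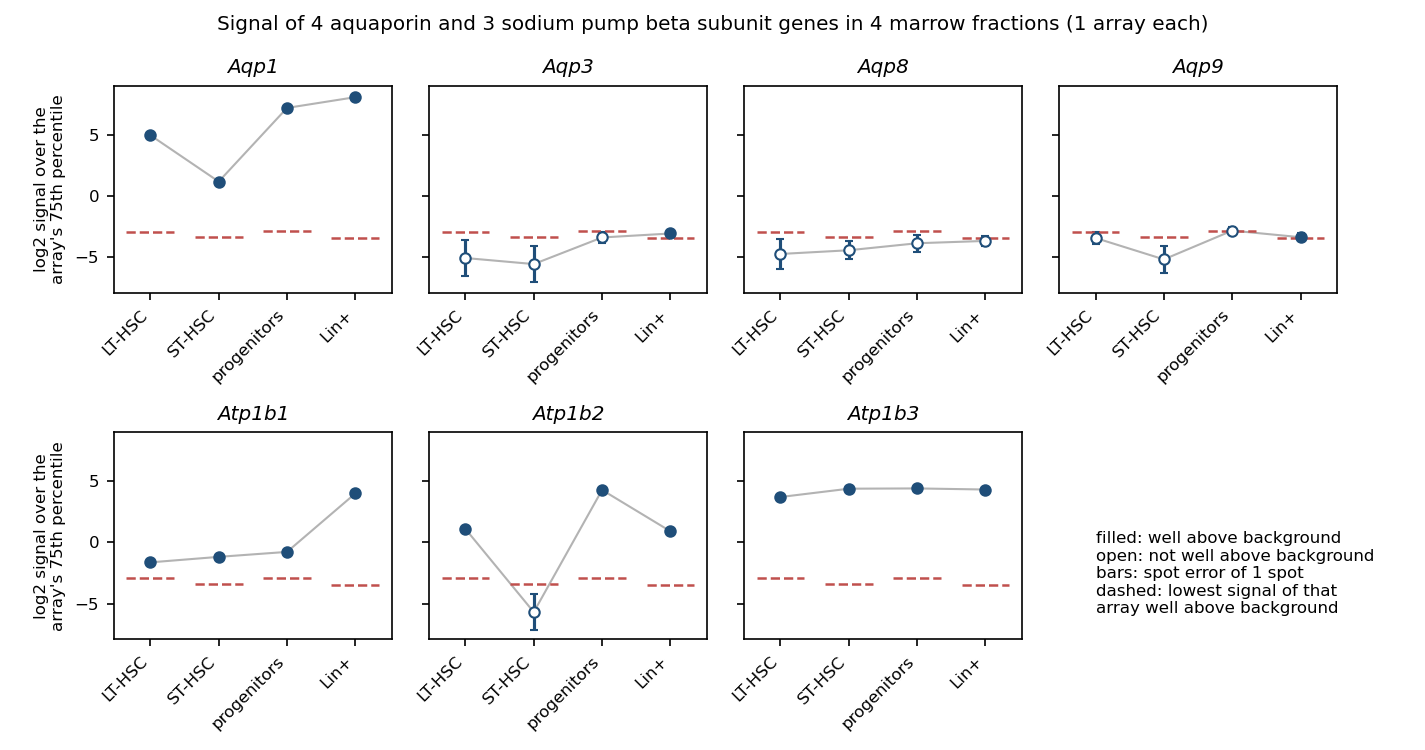
Level of each gene (log2 signal over the array's 75th percentile) in the 4 fractions, 1 array each; filled points are well above background, open points are not, bars are the error of 1 spot, and dashed lines are the lowest level well above background on that array. Aqp1 and Atp1b2 are lowest in ST-HSC, Atp1b1 is highest in Lin+ cells at 4.02, and Atp1b3 stays between 3.72 and 4.42.

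The other 3 aquaporins were at the limit of detection. Aqp3, an aquaglyceroporin, was at -5.08, -5.58 and -3.40 in LT-HSC, ST-HSC and progenitors, where it was not well above background, and at -3.07 ± 0.29 in Lin+ cells, where it was. Aqp9, an aquaglyceroporin of liver and leukocytes, was at -3.44, -5.19 and -2.84 in the same 3 fractions, not well above background, and at -3.38 ± 0.32 in Lin+ cells, where it was. The Lin+ values of both genes lay close to the floor of that array and below the floors of the LT-HSC and progenitor arrays. Aqp8, a channel for water and small solutes, had 2 probes, and neither was well above background on any array; its brighter probe read -4.75, -4.44, -3.87 and -3.68. For these 3 genes no fold between fractions can be given in any of the 4 comparisons, and a difference was not detectable at this signal.

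The pump's beta subunits took 3 different courses. Atp1b2 is the beta 2 isoform, first described on glial cells as an adhesion molecule. Its probe A_55_P1968649 gave a level of 1.11 ± 0.15 in LT-HSC, 4.30 ± 0.14 in progenitors and 0.91 ± 0.14 in Lin+ cells. In ST-HSC it read -5.70 and was not well above background, with a raw spot median of 55.5 beside a local background of 53.0. Progenitors were the highest fraction, LT-HSC and Lin+ cells lay together, and ST-HSC had only a bound. Against the floor of the ST-HSC array, Atp1b2 was at least 22.6-fold lower in ST-HSC than in LT-HSC and at least 206-fold higher in progenitors than in ST-HSC. These bounds depend on how background is handled: over the alternative settings they ran from -6.81 to -2.95 and from 5.80 to 10.00 on the log2 scale, the smallest under normexp and the largest with no floor. Progenitors exceeded LT-HSC by 9.13-fold, and Lin+ cells were 10.4-fold below progenitors, a difference of -3.38 ± 0.20 that was -2.78 under spike-in scaling. Lin+ cells and LT-HSC differed by -0.19 ± 0.21, within the spot error.

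Atp1b1 encodes the beta 1 isoform, the common partner of the alpha subunit in kidney and other epithelia. Its probe A_51_P151484 gave -1.63 ± 0.19, -1.18 ± 0.16, -0.77 ± 0.16 and 4.02 ± 0.14. The 3 immature fractions lay within 1.81-fold of each other, and Lin+ cells stood apart. Lin+ cells exceeded progenitors by 27.6-fold, a difference of 4.79 ± 0.22, and LT-HSC by 50.02-fold, a difference of 5.64 ± 0.24. Over the alternative settings these ran from 4.21 to 5.38 and from 4.61 to 5.94 on the log2 scale, the lower end of the latter under normexp. The steps between the immature fractions were 0.45 ± 0.25 from LT-HSC to ST-HSC and 0.41 ± 0.23 from ST-HSC to progenitors. The second of these changed sign under spike-in scaling, with a range of -0.21 to 0.41 over the settings.

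Atp1b3 encodes the beta 3 isoform. Its probe A_51_P520384 gave 3.72, 4.40, 4.42 and 4.33, each ± 0.14. LT-HSC were lowest, and the other 3 fractions were within the spot error of each other. ST-HSC exceeded LT-HSC by 1.60-fold, a difference of 0.68 ± 0.20, and no pair of fractions reached 2-fold. The sign of the steps from ST-HSC to progenitors and from progenitors to Lin+ cells depended on the scaling. Where ST-HSC had the lowest reading of Atp1b2, the levels of Atp1b1 and Atp1b3 were both slightly above those in LT-HSC.

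**Figure D2:**
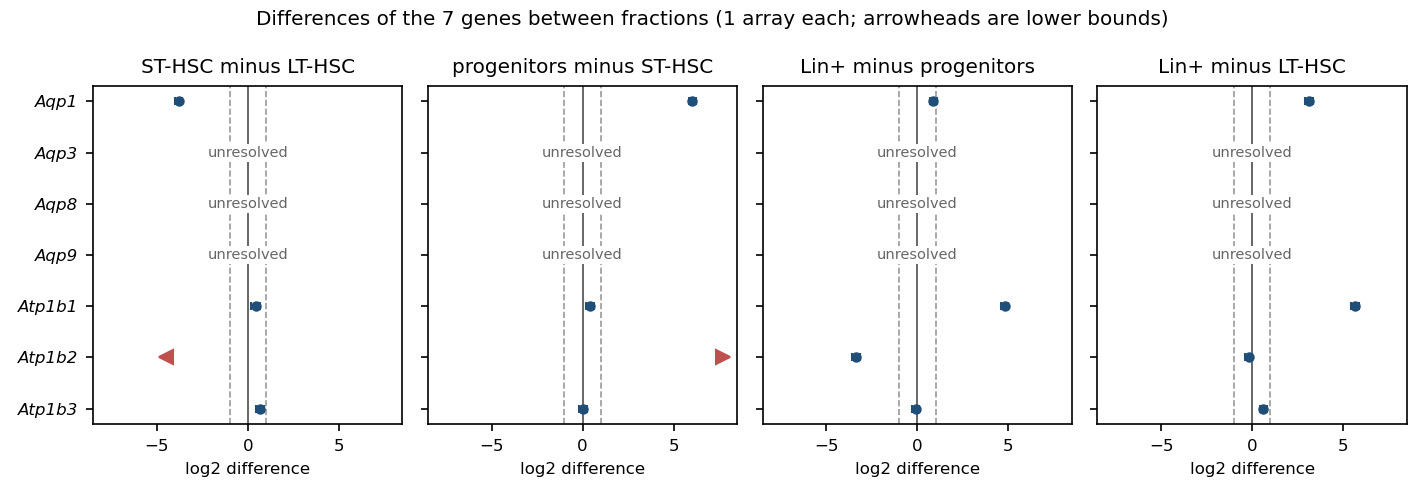
Log2 difference of each gene in the 4 comparisons, with 1 array per fraction; points are measured differences with the combined spot error, arrowheads are lower bounds, dashed lines mark 2-fold, and unresolved means that the brighter side was not well above background or lay below the other array's floor. Aqp1 and Atp1b2 lie to the left in ST-HSC minus LT-HSC and to the right in progenitors minus ST-HSC, and Atp1b1 lies far to the right in both comparisons with Lin+ cells.

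Counted over the 7 genes, 2 differed by at least 2-fold in each comparison, among 4 for which a difference could be measured or bounded. In ST-HSC against LT-HSC, 0 were higher and 2 were lower, Aqp1 and Atp1b2, while 14.8% of the 12617 genes tested differed at least 2-fold, 5.81% higher and 9.0% lower. In progenitors against ST-HSC the same genes were higher and 0 were lower, against 20.2% of all genes, 10.0% higher and 10.2% lower. Both counts describe the choice of the genes and nothing is read from them. A level at least 2-fold lower in ST-HSC than in both neighbouring fractions was found for 236 of 12967 genes, or 1.82%. Between progenitors and Lin+ cells, Atp1b1 was higher in the latter and Atp1b2 lower, against 40.9% of all genes, 14.5% higher and 26.4% lower. Against LT-HSC, Aqp1 and Atp1b1 were higher in Lin+ cells and 0 were lower, against 39.4% of all genes, 16.1% higher and 23.2% lower. The comparisons share arrays, and the ST-HSC array enters the first pair of them, so a low value on it appears in both.

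Other aquaporins were few. Of 12 aquaporin family genes on the array, those above included, 2, 4, 5 and 6 were well above background in the 4 fractions. In ST-HSC against LT-HSC, 0 were higher and 2 lower of 4 measured or bounded, beside 5.81% higher and 9.0% lower over all genes. The list median was -0.69 with bounds included. The median gene, taken only over genes well above background on both arrays, was at 0.03. Besides Aqp1, the lower gene was Aqp11, which encodes an intracellular channel known from the kidney proximal tubule. Aqp11 was at 1.09, -0.31, 2.29 and -1.13. It was lower in ST-HSC than in LT-HSC by 2.65-fold and higher in progenitors than in ST-HSC by 6.08-fold, differences of -1.41 ± 0.21 and 2.60 ± 0.21, the latter 1.99 under spike-in scaling. Its second probe had the same order of fractions, at -0.08, -1.42, 0.81 and -1.79. Unlike Aqp1, Aqp11 was lowest in Lin+ cells, with a difference of -3.42 ± 0.21 from progenitors that was -2.60 under normexp.

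In progenitors against ST-HSC, 4 of 6 measured or bounded aquaporins were higher and 0 lower, beside 10.0% higher and 10.2% lower over all genes. The list median of 1.17 includes bounds. The median gene of 0.21 was taken only over genes well above background on both arrays, so these medians are not alike. The additional genes were Mip, the lens fibre aquaporin, at least 2.43-fold higher, and Aqp7, an aquaglyceroporin of fat cells, at least 2.08-fold higher. Both entered this count only through progenitors, where they were well above background, and neither was so in ST-HSC. From progenitors to Lin+ cells, 1 of 5 was higher and 2 were lower. The higher gene was Aqp2, the vasopressin-regulated channel of the kidney collecting duct, which was not well above background in LT-HSC and was at -2.92, -2.47 and 2.45 in the other 3. Lin+ cells thus exceeded progenitors in Aqp2 by 30.3-fold, a difference of 4.92 ± 0.32, and LT-HSC by at least 42.1-fold. These ran from 3.36 to 5.52 and from 3.73 to 5.69 on the log2 scale over the settings, the lowest under normexp. Compared with LT-HSC, Lin+ cells were higher for 2 of 3, Aqp2 and Aqp1, and lower for Aqp11. Aqp5, a channel of gland cells, was well above background in ST-HSC and on no other array, at -2.74 and -1.05 by its 2 probes; it was named after its values were seen. The probe at -2.74 stood for the gene in the counts, at least 1.15-fold above LT-HSC. The other lay more than 2-fold above the floors of the LT-HSC and progenitor arrays, -2.94 and -2.87. The 0 aquaporins higher than in LT-HSC and 0 lower in progenitors thus depend on the probe chosen.

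Of 11 P-type sodium and proton pump subunit genes, 10 were on the array, and 4, 3, 6 and 4 were well above background in LT-HSC, ST-HSC, progenitors and Lin+ cells. In ST-HSC against LT-HSC, 0 of 4 measured or bounded subunits were higher and 1 was lower, with a list median of 0.34. In progenitors against ST-HSC, 3 of 6 were higher and 0 lower (median 1.05): Atp1b2, and the gastric proton pump genes Atp4a and Atp4b at least 3.09-fold and 3.51-fold. Lin+ cells compared with progenitors had 1 of 6 higher, Atp1b1, and 4 lower (median -1.44), beside 14.5% and 26.4% of all genes. Atp4a and Atp4b were well above background only in progenitors, so they entered the counts of both comparisons as bounds. Lin+ cells compared with LT-HSC had 1 of 4 higher and 0 lower (median 0.21), beside 16.1% and 23.2% of all genes. The shares over all genes given above for each comparison stand beside the counts of the lists below as well.

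FXYD proteins are small membrane proteins that bind the pump and tune its activity. Of 7 FXYD genes, 3 were well above background in each of the 3 immature fractions and 4 in Lin+ cells. Fxyd5, also called dysadherin, was at 6.27, 6.52, 6.26 and 6.23, with no pair of fractions in the 4 comparisons reaching 2-fold. In ST-HSC against LT-HSC 0 of 3 differed by at least 2-fold (median -0.0006). In progenitors against ST-HSC, Fxyd1, phospholemman, was higher by 2.09-fold and 0 were lower, with a median of -0.26 over 3 genes. Fxyd2, the gamma subunit of the kidney pump, was at 0.67, 0.67, 0.19 and -2.94, with Lin+ cells 8.80-fold below progenitors and 12.3-fold below LT-HSC, differences that shrank to -1.82 and -2.27 on the log2 scale under normexp. Fxyd6, known from brain, was well above background on the Lin+ array and on no other, and was at least 3.56-fold higher there than in progenitors. Over the list, Lin+ cells had 1 of 4 higher and 2 lower than progenitors (median -0.52), and 1 of 4 higher and 1 lower than LT-HSC (median -0.05). Among all genes, 40.9% and 39.4% differed at least 2-fold in these comparisons.

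Genes of cell volume control and ion transport include some that move salt so that water follows. Of the 20 genes on this list, 15 could be compared between ST-HSC and LT-HSC. In this comparison 0 differed by at least 2-fold (median 0.05), beside the 14.8% of all genes given above. Lrrc8a, a subunit of the volume-regulated anion channel, reached -1.07 under quantile normalization, and Slc12a4 reached 1.00 under spike-in scaling, both just past 2-fold. In progenitors against ST-HSC, 3 of 16 were higher and 2 lower (median 0.20). Slc12a4, a potassium-chloride cotransporter, was at 1.13 in ST-HSC and 3.24 in progenitors, 4.32-fold apart and 2.82-fold under spike-in scaling. Slc8a1, a sodium-calcium exchanger, was well above background in progenitors and on no other array, at least 9.57-fold above ST-HSC, a bound that ran from 1.78 to 5.37 on the log2 scale over the settings. Piezo1, a stretch-activated channel, was 2.32-fold higher. For Lin+ cells, 3 of 17 were higher and 3 lower than in progenitors (median -0.30), and 1 of 16 was higher and 3 lower than in LT-HSC (median 0.08). Slc12a2, a sodium-potassium-chloride cotransporter, was at 1.84, 0.98, 0.50 and -1.39, 9.36-fold lower in the last than in the first, with a log2 difference of -2.32 under normexp.

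Genes that handle glycerol, the solute of aquaglyceroporins, included 1 with the course of Aqp1. Mgll, the lipase that releases glycerol from monoglycerides, was at 0.38 in LT-HSC, 1.82 in progenitors and 4.33 in Lin+ cells, while its ST-HSC value did not rise well above background. It was at least 13.6-fold lower in ST-HSC than in LT-HSC and at least 37.0-fold higher in progenitors than in ST-HSC. These bounds ran from -4.17 to -1.65 and from 3.02 to 5.61 on the log2 scale over the settings, the smallest with the mean of its probes. Over the 7 genes of the list, 2 were higher and 2 lower in ST-HSC against LT-HSC (median -0.28), 1 was higher in progenitors against ST-HSC (median 0.07) and 1 in Lin+ cells against progenitors (median 0.28), with 0 lower in either. Among all genes, 14.8%, 20.2% and 40.9% differed at least 2-fold in these 3 comparisons. Lin+ cells compared with LT-HSC had 3 higher and 1 lower (median 0.29): Gpd1l, a glycerol-3-phosphate dehydrogenase homologue, was 4.41-fold higher (a log2 difference of 1.23 under normexp) and Gk, glycerol kinase, 2.24-fold higher. Several of these list counts rest on differences near 2-fold: among others, those of Fxyd1, Piezo1, Gk, Gpd1, Aqp7, Mip, Atp4a, Atp4b and Fxyd6 fell below 2-fold under at least 1 alternative setting, and some that were smaller passed it, among them Aqp5 in ST-HSC against LT-HSC and Fxyd2, Slc12a2 and Stk39 in progenitors against ST-HSC.

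**Figure D3:**
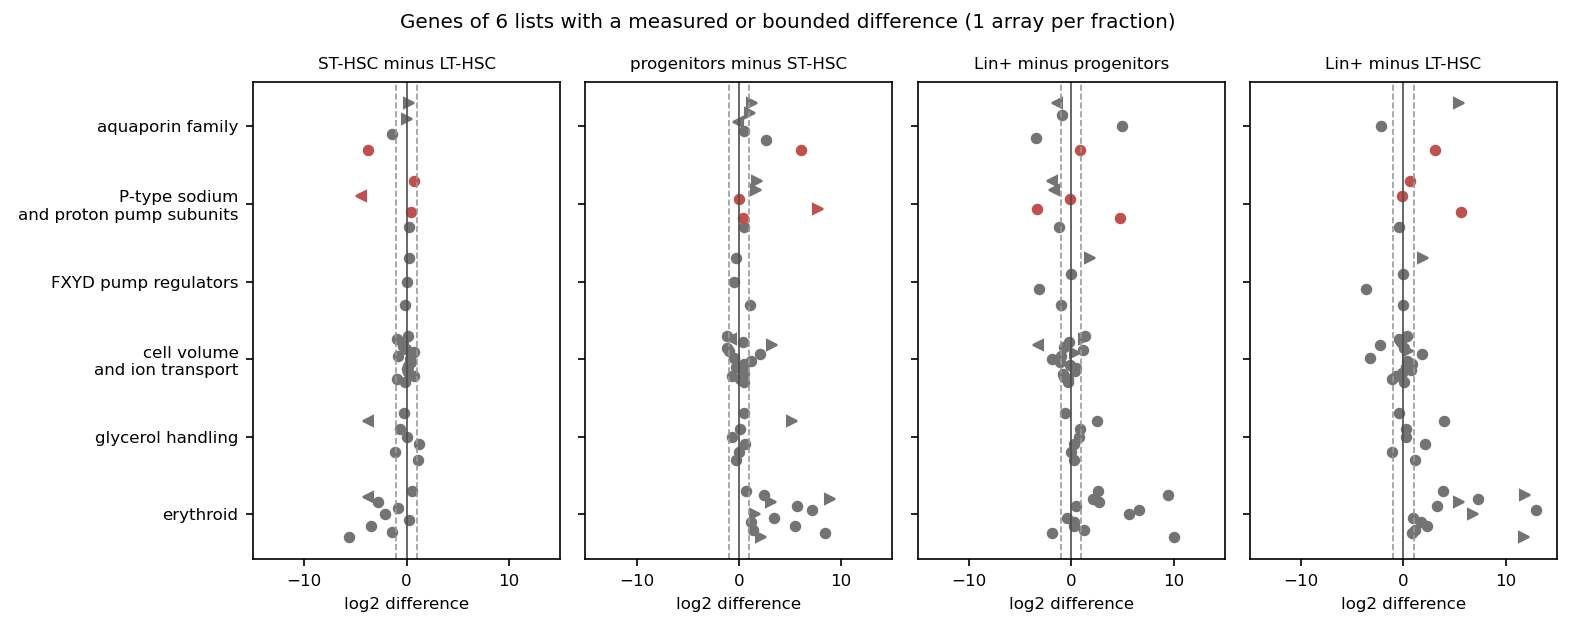
Log2 differences of the genes of 5 pathway lists and of the erythroid marker list in the 4 comparisons, 1 array per fraction; each point is 1 gene, arrowheads are lower bounds, red marks the aquaporin and pump genes described here, and dashed lines mark 2-fold. Erythroid markers lie mostly left of 0 in ST-HSC minus LT-HSC and right of it in the other comparisons, and cell volume genes lie within 2-fold in ST-HSC minus LT-HSC.

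Several marker lists moved between the same fractions as Aqp1, Atp1b1 and Atp1b2. Among all genes, 9.0% were lower in ST-HSC than in LT-HSC and 10.0% higher in progenitors than in ST-HSC. Lin+ cells had 14.5% higher and 26.4% lower than progenitors, and 16.1% higher and 23.2% lower than LT-HSC. Of 13 erythroid markers on the array, 9, 9, 13 and 13 were well above background in the 4 fractions, and their summed signal was 149, 48.3, 353 and 4993 times the 75th percentile. Such sums add linear signals, so the brightest genes weigh most. Car2 was brightest in LT-HSC and ST-HSC, at 6.64 and 5.24, and Hba-a1 in Lin+ cells, at 11.76. In ST-HSC against LT-HSC, 6 of 9 erythroid markers were lower and 0 higher (median -2.14). This count depends on the probe chosen for Ermap, which was not among the lower genes, at 0.37 in LT-HSC and 0.60 in ST-HSC. Its other probes were at 0.43 and -1.14 in LT-HSC and not well above background in ST-HSC. In progenitors against ST-HSC, 12 of 13 erythroid markers were higher and 0 lower (median 3.12). In Lin+ cells 8 of 13 were higher and 1 lower than in progenitors, and 11 of 13 were higher than in LT-HSC with 0 lower. Gata1, an erythroid and megakaryocyte transcription factor, was at 4.83, 2.69, 6.15 and 5.75. Markers of megakaryocytes and platelets were lower in Lin+ cells than in progenitors, as Atp1b2 was, in 9 of 9 (median -3.60). Of these markers, 9 of 9 were lower in ST-HSC than in LT-HSC (median -2.79). In progenitors 8 of 9 were higher than in ST-HSC (median 2.76). Unlike Atp1b2, which differed by -0.19, 9 of 9 were also lower in Lin+ cells than in LT-HSC (median -3.70). Their summed signals were 210, 26.2, 306 and 11.0 times the 75th percentile. Long-term stem cell markers were lower in ST-HSC than in LT-HSC as well, in 8 of 10, with summed signals of 305, 91.8, 36.2 and 83.4. The last sum was mostly Pdzk1ip1, at 6.33 in Lin+ cells, where the next brightest marker, Meis1, was at 0.41. In Lin+ cells 9 of 10 of these markers were lower than in LT-HSC and 0 higher. In ST-HSC against LT-HSC, 4 of 10 neutrophil and 3 of 6 monocyte and macrophage markers were higher and 0 lower, unlike Aqp1 and Atp1b2. In progenitors against ST-HSC, 9 of 11 neutrophil, 4 of 6 monocyte and macrophage and 4 of 5 basophil and mast cell markers were higher and 0 were lower. With Atp1b1, 9 of 9 B cell markers were higher in Lin+ cells than in progenitors, 3, 3, 4 and 9 of them being well above background in the 4 fractions. The T and NK cell, neutrophil, and monocyte and macrophage lists were mixed or partial in this comparison. Of T and NK cell markers 6 of 8 were higher and 1 lower, and of neutrophil markers 6 of 11 were higher and 4 lower. The lower ones were Elane, Mpo, Prtn3 and Ctsg, and the higher ones ran from 18.5-fold (S100a8) to 2445-fold (Ltf). Of monocyte and macrophage markers 4 of 6 were higher and 0 lower. Lin+ cells exceeded LT-HSC, as in Atp1b1, for 9 of 9 B cell and 10 of 11 neutrophil markers. The same held for 6 of 6 monocyte and macrophage and 7 of 8 T and NK cell markers, with 0 lower in these 4 lists. The part of these cells in the levels of Aqp1, Atp1b1 and Atp1b2 was not tested. In sorted fractions measured as bulk RNA, fewer cells of a type and less RNA per cell cannot be told apart.

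The genes whose pattern over the 4 arrays lay nearest to that of Aqp1 were sought among 8804 genes by the root mean square difference of levels centred on each gene's mean, with values below the floor set to it. They were Klf1, an erythroid transcription factor, at 0.374, Epor, the erythropoietin receptor, at 0.421, Tspo2, an erythroid membrane protein, at 0.434, Smim1, which carries the Vel blood group, at 0.501, and Mgll at 0.574. Klf1 was at 0.29, -2.55, 3.10 and 3.55 in the order of the fractions, and Epor at 2.82, -0.68, 4.84 and 5.08. For Atp1b2 they were Ces2g, a carboxylesterase, at 0.776, Car1, a red cell carbonic anhydrase, at 0.793, Mt2, a metallothionein, at 0.834, Prss50, a serine protease, at 0.916, and Spon2, a secreted matrix protein, at 1.00. Car1 was at 3.09, -2.54, 5.87 and 3.95, thus higher in progenitors than in Lin+ cells, as Atp1b2 was. The distance between Aqp1 and Atp1b2 themselves was 1.58. The distances rest on 4 values per gene and describe these arrays.

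**Figure D4:**
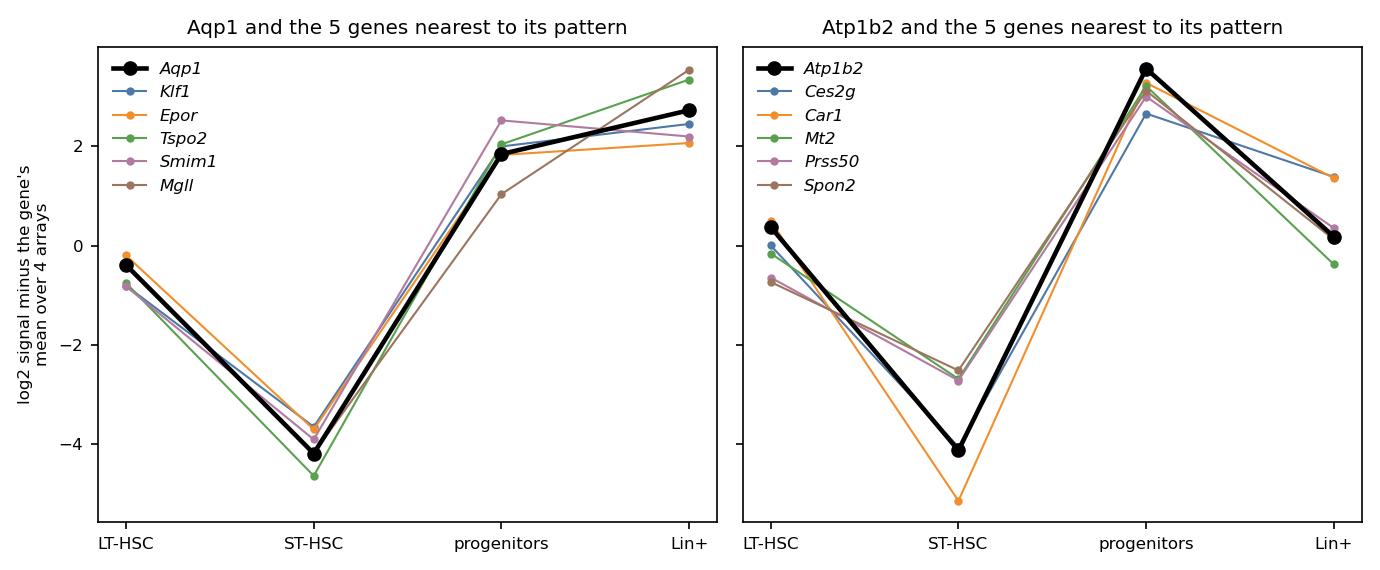
Level of Aqp1 (left) and Atp1b2 (right, black) with the 5 genes nearest to each, as log2 signal minus the gene's mean over the 4 arrays, with values not well above background raised to the array's floor. Both sets are lowest in ST-HSC; the set of Aqp1 stays high in Lin+ cells and the set of Atp1b2 is highest in progenitors.

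The chromosomal neighbours of 6 of the genes were taken from the order of genes in assembly GRCm38.p6; those of Atp1b2 are not reported here. On chromosome 6 Aqp1 lies between Mindy4 and Ghrhr, and neither was well above background on any array. On chromosome 4 Aqp3 lies beside Aqp7, which was well above background in progenitors and Lin+ cells at -2.34 and -3.20, and beside Nol6, which was above background throughout. On chromosome 1 Atp1b1 lies between Nme7, at -0.21, 0.08, 0.09 and -1.04, and Dpt, which was not well above background on any array. Nme7 was lowest in Lin+ cells, where Atp1b1 was highest. On chromosome 9 Atp1b3 lies between Tfdp2, which was at 0.40, 0.83, 0.53 and 3.61, and Rnf7, which was above background throughout. Of the neighbours of Aqp8, Lcmt1 was above background throughout and Zkscan2 on no array, and neither neighbour of Aqp9 was well above background on any array.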

How the data were processed

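Cy3-labelled RNA of each sorted fraction was measured on 1 Agilent array, per the labels' protocols. The deposited scanner files give linear spot intensity, from which Feature Extraction (10.7.1.1, per the submitters' processing notes) had subtracted background within each array and applied no scaling between arrays, per the file headers. The authors' deposited value table is a linear ratio of this signal to 1 constant per array (190.9, 216.9, 137.2 and 229.8), which held within 1% for 100% of 55249 probes printed on 1 spot; its scale, centring and direction are thus known, and its column medians were 0.0619, 0.0630, 0.0704 and 0.0738. It served as an alternative.

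Control and outlier spots were dropped, log2 signals of a probe's spots averaged, and each array's 75th percentile subtracted (Python 3.11.15, pandas 2.3.3). RefSeq accessions named 26762 of 55678 probes (48.1%), and the brightest probe stood for a gene. Values not well above background were raised to the array's floor where they lay below it, and a difference from such a value is written as at least N-fold. A probe passed when all of its spots did; this rule was set after results with a share of 0.5 had been seen. Calls were tried on simulated data with spot error only, for genes well above background on both arrays. The simulation held no change of exactly 2-fold, no floor bounds and no differences between mice or sorts, so it does not cover these. The genes and lists were chosen with earlier results of these data known, and the sorting genes were added later. Named are the 7 genes, up to 4 genes per pathway list and comparison with the largest differences, the 5 nearest patterns and some markers; Fxyd5, Aqp5 and the second Aqp11 probe were added after their values were seen. Some genes of the lists are counted but not reported by name here. With 1 array per fraction, no test across samples was possible, and precision is limited by the number of arrays. The 12 alternatives concerned background (normexp of limma 3.58.1 in R 4.3.3, offset 50, on median spot signals), scaling, centring, filters, probe rules, the source of values and the threshold.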

Additional observations from a re-analysis of the deposited data

How the results depend on the processing

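Over 12 alternative settings, 48 counts of the 7 genes differing at least 2-fold were recomputed and 44 stayed within 1.5 times the main count of 2. With no background filter or floor, 4 genes differed in progenitors against ST-HSC and 4 in Lin+ cells against LT-HSC; with only genes well above background on both arrays, 1 differed in ST-HSC against LT-HSC and 1 in progenitors against ST-HSC, since that setting drops Atp1b2. Of 174 recomputed differences of single genes, 117 moved by less than the spot error, 57 moved by more, and 0 of those past 2-fold changed sign. Counting a probe as above background from a share of 0.5 of its spots, a setting added after the data were seen together with normexp on the median signal, lowered the floor of ST-HSC to -4.00 and raised the bounds of Atp1b2 to 34.5-fold and 315-fold, with 2 genes called in every comparison and 15.9%, 21.0%, 41.2% and 40.2% of all genes.

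The median gene moved with the scaling, from -0.03 to 0.34 in ST-HSC against LT-HSC, -0.41 to 0.21 in progenitors against ST-HSC, -0.49 to 0.18 in Lin+ cells against progenitors and -0.46 to 0.09 in Lin+ cells against LT-HSC. The share of calls that were higher, 39.2%, 49.6%, 35.5% and 41.0%, ran from 34.0% to 63.3%, 14.03% to 52.8%, 30.3% to 70.8% and 30.7% to 55.7%. No paired analysis was possible because every sample is labelled replicate 1 and each fraction has 1 array. Signal over background limits Aqp3, Aqp8 and Aqp9 in every fraction and Atp1b2 in ST-HSC.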
